A study of Homo sapiens with 6 samples.

Results

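Heterochromatin and repeat silencing genes encode the proteins that keep repeat DNA, such as the satellites around centromeres, compact and silent. The set held 42 genes, listed by name for their part in this biology, and each had at least 1 probe set that the platform annotation assigns to it alone. They were covered by 147 of the 49293 probe sets that are not Affymetrix controls, and all 42 were among the 10879 genes tested of 18132 on the array. ARPE-19 is an established human line of retinal pigment epithelial cells. Its cells received 2.5 µg of plasmid per well in 6-well plates, either a plasmid for GFP (green fluorescent protein), the control, or a plasmid for GFP with satellite alpha, the repeat of human centromeres (SATalpha below). Each group had 3 arrays. No genotype or age applies, both groups were transfected and carry GFP, and untransfected cells were not analysed here. The labels name neither the plasmid's promoter nor the time of harvest, and they do not say whether the arrays came from separate cultures. The spread behind each p-value is thus that between these arrays and may be technical only. The level of satellite alpha RNA itself was not analysed here.

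In the textbook account, SUV39H and SETDB enzymes methylate histone H3 on lysine 9. That mark is bound by HP1 proteins, which recruit further enzymes and compact the chromatin. DNA methylation, held in place through cell division by DNMT1 and UHRF1, and the HUSH complex add further silencing, while demethylases and the balance with Polycomb act against or beside it. Satellite repeats are classical sites of this machinery.

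The log2 signals of the 6 arrays had medians from 5.29 to 5.32. The correlation across probe sets was at least 0.996 within a group and at most 0.996 between groups, a description over probe sets that are not independent. Of the 13 retinal pigment epithelium markers on the array, 7 lay above the floor of 5.19 used to select tested genes, among them MITF at 8.11, OTX2 at 8.34 and KRT18 at 12.11, while RPE65 at 3.41, BEST1 at 4.62, RLBP1 and LRAT lay below it. Among the tested markers, the keratins KRT8 (11.483 with GFP and 11.353 with SATalpha, limma adjusted p = 0.0266) and KRT18 (12.217 and 12.005, adjusted p = 0.000673) fell, and their part in the results below was not tested. Of the 4 leukocyte and 4 fibroblast markers 0 lay above that floor, and of the 3 endothelial markers PECAM1 and VWF did so narrowly at 5.34 and 5.35. In bulk RNA, fewer cells with a transcript and less of it per cell cannot be told apart.

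Of the 42 silencing genes 6 changed. SETDB2 and EHMT2, which methylate histone H3 lysine 9, CBX3, an HP1 protein, and LRWD1, which links the origin recognition complex to heterochromatin, fell. HELLS, a remodeller needed for DNA methylation of repeats, and MBD3, a subunit of the NuRD deacetylase complex, rose. The calls thus numbered 2 higher (4.76% of the 42) and 4 lower (9.52%) by limma at an adjusted p of 0.05, against 7.72% higher and 13.0% lower among all tested genes, or 20.8% in either direction. The share called among the silencing genes, 14.3%, was below this background, and no test of the list was made. Their median log2 difference, SATalpha minus GFP, was -0.05, against -0.02 over all tested genes, and the median size of the difference was 0.10 against 0.09. All 3 SATalpha values lay above all 3 GFP values in 5 members and below them in 9, which makes 14 without overlap (33.3%). Among all tested genes 14.4% lay above and 23.2% below, 37.6% in either direction.

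**Figure D1:**
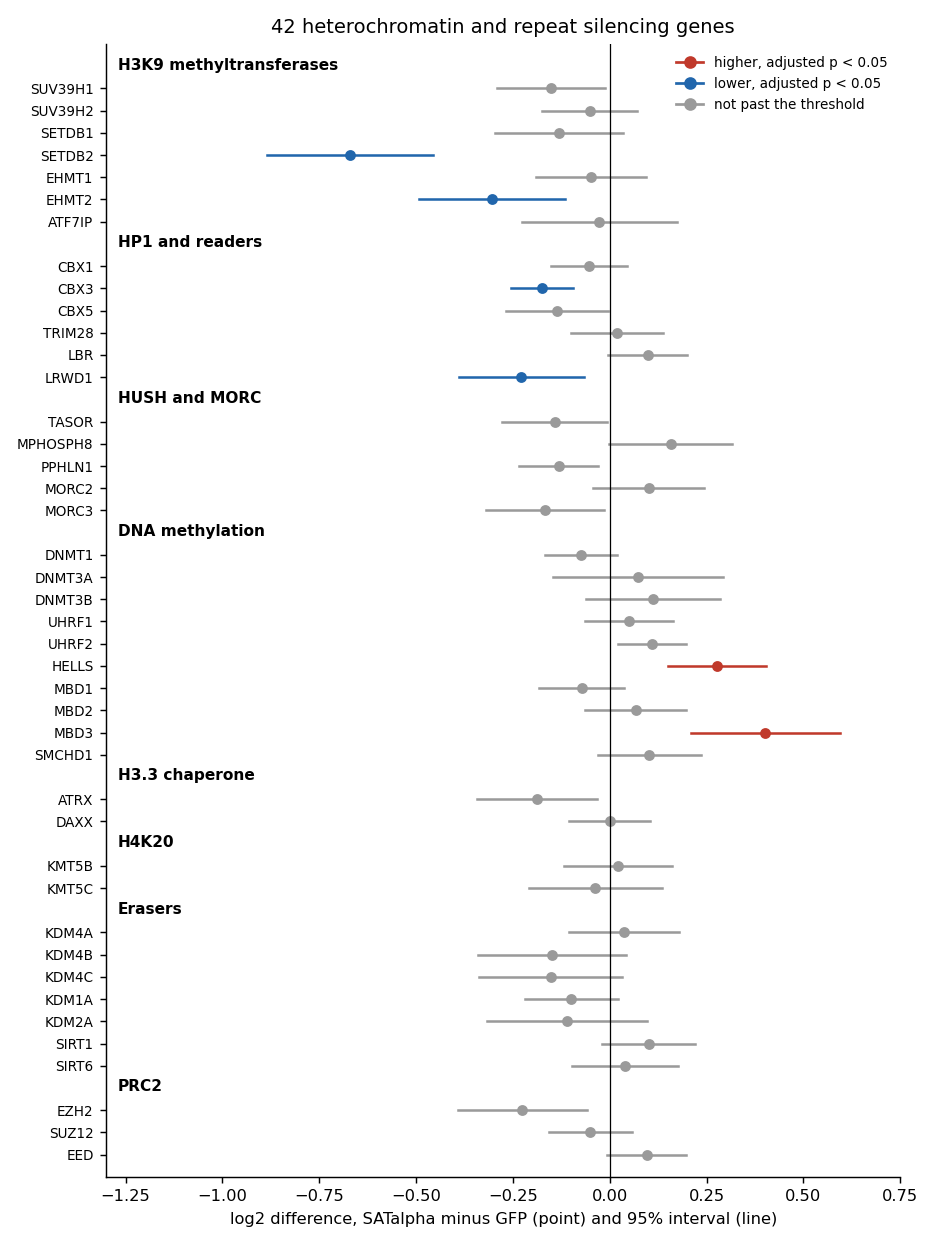
Log2 difference between SATalpha and GFP (x axis, point) with its 95% interval (line) for the brightest probe set of each of the 42 genes, grouped by role. SETDB2, at -0.67, lies farthest from 0, and most other intervals span 0.

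All 7 genes of histone H3 lysine 9 methylation had differences below 0 in their brightest probe sets, from -0.67 to -0.03, and 2 of them fell. Among all tested genes 57.7% had differences below 0 and 13.0% fell. SETDB1 turned above 0 as the mean of its probe sets, and EHMT1 and ATF7IP did so when an array was left out. SETDB2, a methyltransferase of this mark, read 6.36, 6.39 and 6.21 on the GFP arrays and 5.85, 5.46 and 5.63 on the SATalpha arrays. The groups were clearly apart, with the highest SATalpha value below the lowest GFP value. The mean of SETDB2 was 6.32 ± 0.10 with GFP and 5.65 ± 0.19 with SATalpha (SD, n = 3). It thus fell by 0.67 (SE 0.10, limma adjusted p = 0.0004), to 0.628 of the GFP level. Its other probe set, at 6.16, 6.17 and 5.97 with GFP and 5.38, 5.31 and 5.42 with SATalpha, fell by 0.73 (limma adjusted p = 0.000162 over probe sets). Both probe sets thus moved alike, and the gene passed whichever array was left out, with -0.77 to -0.58. RefSeq also lists a read-through gene that joins SETDB2 with its neighbour PHF11, and which of these RNAs the probes detected was not tested.

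EHMT2 (also called G9a), which adds the mono- and dimethyl forms of the mark, had a single probe set. It read 5.55, 5.65 and 5.73 with GFP and 5.38, 5.31 and 5.34 with SATalpha, so the groups did not overlap. The gene fell by 0.30 (SE 0.09, limma adjusted p = 0.0259) on this dim probe set. EHMT2 did not pass when replicate 2 or 3 of GFP (-0.30 and -0.26) or replicate 1 or 2 of SATalpha (-0.32 and -0.29) was left out, nor in the fit over all probe sets (adjusted p = 0.0519). EHMT1, the partner with which EHMT2 forms a heterodimer, differed by -0.05 (95% interval -0.19 to 0.09, adjusted p = 0.658).

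The windows before the start sites of these methyltransferases are shown because they are the genes of this role that fell. That of HELLS is shown as an example of a member that rose, not picked by a rule. Each is the 250 bases before the RefSeq start site on GRCh38.p14, written 5′ to 3′ on the gene's strand: chr13:49444024-49444273 on the plus strand for SETDB2, chr6:31897699-31897948 on the minus strand for EHMT2 and chr10:94545538-94545787 on the plus strand for HELLS. Capitals mark matches, on either strand, to a CCAAT box (CCAAT), to the E2F site (TTTGGCGC or TTTCCCGC) or to the CHR element of cell cycle genes (TTTGAA).
SETDB2: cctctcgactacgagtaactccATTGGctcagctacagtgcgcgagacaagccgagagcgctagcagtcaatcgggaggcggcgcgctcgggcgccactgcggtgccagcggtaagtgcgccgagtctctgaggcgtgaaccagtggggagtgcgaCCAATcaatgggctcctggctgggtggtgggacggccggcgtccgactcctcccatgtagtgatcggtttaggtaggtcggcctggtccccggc
EHMT2: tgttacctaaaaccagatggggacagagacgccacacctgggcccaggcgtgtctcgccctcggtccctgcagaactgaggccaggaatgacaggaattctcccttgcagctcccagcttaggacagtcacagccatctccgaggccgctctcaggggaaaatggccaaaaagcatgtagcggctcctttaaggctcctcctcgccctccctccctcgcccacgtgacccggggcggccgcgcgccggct
HELLS: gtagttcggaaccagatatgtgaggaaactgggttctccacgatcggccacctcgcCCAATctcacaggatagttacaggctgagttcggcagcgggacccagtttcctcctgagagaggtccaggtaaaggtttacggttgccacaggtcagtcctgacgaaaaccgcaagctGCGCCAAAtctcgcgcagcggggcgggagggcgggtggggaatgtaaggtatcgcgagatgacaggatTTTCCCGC

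SETDB2 held 2 CCAAT boxes and EHMT2 none of these letters. HELLS held 1 CCAAT box and 2 E2F matches. MBD3, the other member that rose, also had all 3 probe sets above 0. Its window, not shown, held a CCAAT box and no E2F match. Windows were found for 39 of the 42 genes. E2F letters occurred in 4 of those 39 genes (HELLS, UHRF1, SUZ12 and SIRT6), against 2.36% of all genes with a window and 1.93% of all 35116 windows, where a gene can have several. CHR letters occurred in 5 of the 39 genes, against 16.1% of all genes, and CCAAT letters in 20, against 37.0%. These matches are a description of letters. Of the 4 genes with E2F letters, HELLS passed the test, whereas UHRF1 (0.05), SUZ12 (-0.05) and SIRT6 (0.04) did not.

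SUV39H1, the classical trimethylase of pericentric repeats, read 7.16, 7.03 and 7.11 with GFP and 7.01, 6.92 and 6.93 with SATalpha. The SATalpha values all lay below those of GFP, but narrowly, and the difference of -0.15 did not pass (95% interval -0.29 to -0.01, limma adjusted p = 0.116). Its paralog SUV39H2 differed by -0.05 (adjusted p = 0.567). SETDB1, which methylates the mark where TRIM28 and zinc finger proteins bring it, read 6.26, 6.26 and 6.28 with GFP and 6.03, 6.17 and 6.22 with SATalpha. These groups too did not overlap, and the difference of -0.13 did not pass (adjusted p = 0.25), while its other probe set differed by 0.18 in the opposite direction. ATF7IP, the partner that stabilises SETDB1, differed by -0.03 (adjusted p = 0.877).

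Other genes that act on histone H3 lysine 9 were taken as a list of 15, of which 10 were tested. Of these, 3 fell (30%) and 0 rose, with a median of -0.06. Among all tested genes 13.0% fell and 7.72% rose, with a median of -0.02, and no test of the list was made. JMJD1C, of the demethylase family of KDM3A, fell from 8.79 to 8.39, by 0.40 (limma adjusted p = 0.000223). ZNF644 and WIZ, zinc finger proteins of the EHMT1 and EHMT2 complex, fell by 0.29 (adjusted p = 0.00257) and 0.36 (adjusted p = 0.0203). WIZ did not pass when replicate 2 or 3 of GFP (-0.36 and -0.32) or replicate 1 of SATalpha (-0.25) was left out. For all 3 genes other probe sets reached above 0, with 0.02 for JMJD1C, 0.08 for ZNF644 and 0.14 for WIZ, and as the mean of all probe sets ZNF644 (-0.11, adjusted p = 0.24) and WIZ (-0.05, adjusted p = 0.639) did not pass.

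**Figure D2:**
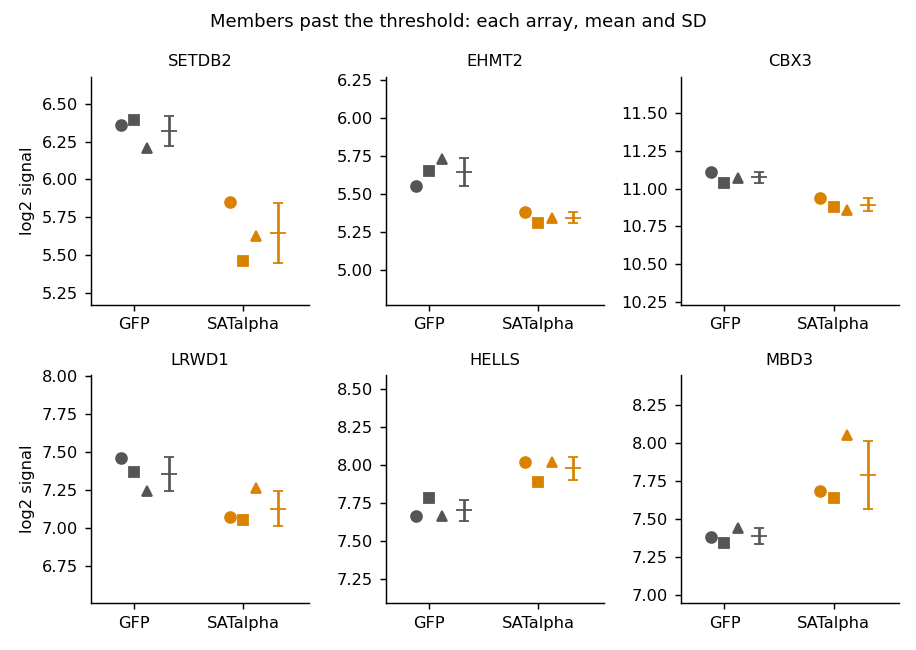
Log2 signal (y axis, 1.5 log2 units tall in each panel) of the 6 genes past the threshold on each GFP and SATalpha array, with circles, squares and triangles for replicates 1, 2 and 3 and the mean and SD at the side. The groups overlap for LRWD1 and are apart for the other 5 genes.

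Among the HP1 proteins, which bind methylated lysine 9 of histone H3 through a chromodomain, CBX3 (HP1 gamma) fell. CBX3 read 11.11, 11.04 and 11.07 with GFP and 10.94, 10.88 and 10.86 with SATalpha, 2 separate groups. The log2 difference was -0.18 (SE 0.04, limma adjusted p = 0.00452), which is 0.885 of the GFP level. Another probe set differed by -0.19 and passed over probe sets (adjusted p = 0.0285), and the remaining probe set differed by 0.03 (adjusted p = 0.826). The second call was not made without replicate 1 of GFP (-0.15) or replicate 1 or 3 of SATalpha (-0.21 and -0.14). All 3 carry a suffix for probes that can match more than 1 transcript, as do all probe sets of the other called silencing genes. As the mean of its 3 probe sets CBX3 differed by -0.11 and lost the call (adjusted p = 0.0866).

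CBX5 (HP1 alpha) had 7 probe sets, and all 7 had differences below 0, from -0.38 to -0.03. Its brightest read 7.95, 7.85 and 7.79 with GFP and 7.75, 7.78 and 7.65 with SATalpha. These groups were just apart, and the difference of -0.14 did not pass (limma adjusted p = 0.133). A dimmer probe set, at 5.92, 5.76 and 5.78 with GFP and 5.43, 5.35 and 5.56 with SATalpha, fell by 0.37 (adjusted p = 0.0216 over probe sets). It did not pass when replicate 1 of GFP (-0.32) or replicate 1 or 2 of SATalpha (-0.36 and -0.33) was left out. As the mean of its probe sets CBX5 differed by -0.21 and passed (adjusted p = 0.0276). Probe sets of a gene share the same RNA and are not replicates. CBX1 (HP1 beta), with 1 probe set, differed by -0.05 (95% interval -0.15 to 0.04, adjusted p = 0.441).

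TRIM28 (KAP1), the corepressor that joins KRAB zinc finger proteins to SETDB1 and HP1, read 8.36, 8.20 and 8.29 with GFP and 8.25, 8.31 and 8.35 with SATalpha. The groups overlapped fully, with a difference of 0.02 (95% interval -0.10 to 0.14, limma adjusted p = 0.857). LBR, the inner nuclear membrane protein that tethers heterochromatin, differed by 0.10 (adjusted p = 0.164) and by 0.19 in its other probe set. LRWD1 read 7.46, 7.37 and 7.24 with GFP and 7.07, 7.05 and 7.26 with SATalpha. SATalpha replicate 3 lay above GFP replicate 3, so the groups overlapped, although LRWD1 fell by 0.23 at the edge of the threshold (SE 0.08, adjusted p = 0.0461). LRWD1 did not pass when replicate 1 or 2 of GFP (-0.18 and -0.22) or replicate 1 or 2 of SATalpha (-0.20 and -0.19) was left out, nor as the mean of its probe sets (-0.10, adjusted p = 0.297), the other of which differed by 0.03. It also missed the threshold with only the lowest 20% of genes left out (adjusted p = 0.0561), with no filter (adjusted p = 0.066) and with no mean-variance trend (adjusted p = 0.0797), and it passed in 5 of the 15 alternatives run.

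Of the lamina and heterochromatin-bound factors, 4 of 16 tested fell (25%) and 0 rose, with a median of -0.11. Among all tested genes 13.0% fell and 7.72% rose, with a median of -0.02, and no test of the list was made. ZNF274, a zinc finger protein that recruits SETDB1, fell by 0.26 (limma adjusted p = 0.00361), and POGZ, which binds HP1 proteins, by 0.25 (adjusted p = 0.0144). LMNA, which encodes lamins A and C, and LEMD3, an inner nuclear membrane protein, fell by 0.15 (adjusted p = 0.0211) and 0.20 (adjusted p = 0.0457). ZNF274 passed whichever array was left out. POGZ did not pass when replicate 1 or 2 of GFP (-0.24 in both) or replicate 2 of SATalpha (-0.19) was left out. LEMD3 missed the threshold in each of the 6 fits that left out 1 array, with -0.22 to -0.18. LMNA passed in 1 of those fits, the one without replicate 3 of SATalpha. Without replicate 1 or 2 of GFP another probe set became its brightest, at 0.13 in both, and in the other fits it was -0.15, -0.15 and -0.12. As the mean of all their probe sets, none of these 4 genes passed, with adjusted p from 0.0867 to 0.485.

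The HUSH complex, formed by TASOR, MPHOSPH8 and PPHLN1, brings SETDB1 and MORC2 to repeats and retroelements. None of its 3 genes, nor MORC2 and MORC3, ATPases that compact chromatin, passed in the gene fit (0 of 5). Of these 5, 3 had an unadjusted limma p under 0.05. The unmoderated model called 0, as it did over all 42 silencing genes, so that count is not particular to these 5. Among all tested genes 20.8% passed, and 3692 of 10879 had an unadjusted limma p under 0.05. No test of this short list was made. MPHOSPH8, the HUSH subunit that reads methylated lysine 9 of histone H3, read 6.36, 6.48 and 6.52 with GFP and 6.67, 6.64 and 6.53 with SATalpha. Its groups were apart by a very small margin, and the difference of 0.16 did not pass (limma adjusted p = 0.149). All 5 of its probe sets had differences above 0, from 0.08 to 0.23. TASOR, the scaffold of the complex, and PPHLN1 (periphilin) differed the other way, by -0.14 (adjusted p = 0.131) and -0.13 (adjusted p = 0.0643). TASOR passed without replicate 1 of SATalpha (-0.22) and PPHLN1 without replicate 3 of GFP (-0.18). MORC2 differed by 0.10 (adjusted p = 0.312). MORC3 differed by -0.17 (adjusted p = 0.111), and it passed as the mean of its probe sets, at -0.19 (adjusted p = 0.0198).

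Of the 10 DNA methylation genes, 8 had differences above 0 in their brightest probe sets and 2 below, against 57.7% below 0 among all tested genes. Of the 10, 2 rose (20%) and 0 fell, against 7.72% of all tested genes that rose. DNMT3A turned below 0 as the mean of its probe sets, and SMCHD1 without probe sets of several transcripts. HELLS (LSH) read 7.66, 7.78 and 7.66 with GFP and 8.02, 7.89 and 8.02 with SATalpha, with every SATalpha array above every GFP array. Its mean was 7.70 ± 0.07 with GFP and 7.98 ± 0.07 with SATalpha (SD, n = 3). HELLS rose by 0.28 (SE 0.06, limma adjusted p = 0.00464), 1.21 times the GFP level. Its other probe sets differed by 0.25 and 0.33 without passing over probe sets, and the gene passed whichever array was left out, with 0.26 to 0.32. HELLS is known as a gene of proliferating cells. Beside it, 3 of 24 tested G1/S and replication genes rose and 2 fell, with a median of 0.05. Of 17 G2/M genes, 15 fell and 0 rose, with a median of -0.42, where 13.0% of all tested genes fell. The part of the cell cycle in the value of HELLS was not tested.

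MBD3 read 7.38, 7.34 and 7.44 with GFP and 7.68, 7.64 and 8.05 with SATalpha. The SATalpha arrays were all higher, with replicate 3 well above the others. MBD3 rose by 0.40 (SE 0.09, limma adjusted p = 0.00631), and by 0.27 without replicate 3 of SATalpha, still past the threshold. Its other probe sets differed by 0.15 and 0.02, and as the mean of all 3 it differed by 0.19 and lost the call (adjusted p = 0.0588). MBD1 and MBD2, of the same family of methyl-CpG binding domain proteins, differed by -0.07 (adjusted p = 0.351) and 0.07 (adjusted p = 0.476). The 8 probe sets of MBD1 ran from -0.17 to 0.22, and those of MBD2 from -0.02 to 0.16.

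DNMT1, which copies methylation to the new strand after replication, read 9.22, 9.18 and 9.16 with GFP and 9.13, 9.13 and 9.08 with SATalpha. The groups were apart by a narrow gap and the difference of -0.07 did not pass (95% interval -0.17 to 0.02, limma adjusted p = 0.247). UHRF1, which guides DNMT1 to hemimethylated DNA, overlapped between groups and differed by 0.05 (adjusted p = 0.553). Its paralog UHRF2 read 9.37, 9.35 and 9.32 with GFP and 9.48, 9.44 and 9.45 with SATalpha. Every SATalpha value of UHRF2 was higher, and the difference of 0.11 did not pass (adjusted p = 0.0763; 0.0425 where all genes were means of their probe sets). The de novo methyltransferases DNMT3A and DNMT3B differed by 0.07 (adjusted p = 0.665) and 0.11 (adjusted p = 0.362). DNMT3A turned to -0.05 as the mean of its probe sets, and the 11 probe sets of DNMT3B ran from -0.16 to 0.18. SMCHD1, a chromatin protein of the silent X chromosome and of repeat arrays, differed by 0.10 (adjusted p = 0.268).

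Among 9 tested genes of DNA demethylation and methyl reading, 1 rose (11.1%) and 0 fell, against 7.72% and 13.0% of all tested genes. The gene that rose was ZBTB38, a zinc finger protein that binds methylated DNA. It went from 10.76 to 11.02, by 0.26 (limma adjusted p = 0.00401). Its 3 other probe sets ranged from 0.05 to 0.55, and it passed whichever array was left out. In the list of HDAC, NuRD and SIN3 genes, to which MBD3 is tied through NuRD, 1 of 16 tested fell (6.25%) and 0 rose. SAP30, a subunit of the SIN3 complex, fell by 0.30 (adjusted p = 0.000492), whereas its other probe sets ran from -0.03 to 0.09. Averaged together with the brightest, they gave -0.08, which did not pass (limma adjusted p = 0.389).

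ATRX and DAXX deposit the histone variant H3.3 at pericentric and telomeric repeats. ATRX read 7.18, 7.25 and 7.12 with GFP and 7.06, 6.86 and 7.07 with SATalpha, and all SATalpha values lay below those of GFP. Its difference of -0.19 did not pass (limma adjusted p = 0.0826). Its 8 probe sets disagreed, with -0.19 to 0.34, and their mean was 0.05. Without replicate 2 or 3 of GFP a probe set of nearly the same brightness stood for the gene, at 0.03 and 0.003, and without replicate 3 of SATalpha the original one passed (-0.23), so no direction is given for ATRX. DAXX had nearly equal means, with a difference of -0.0006 (95% interval -0.11 to 0.10, adjusted p = 0.995).

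Of the other histone H3 and H4 chaperones, 1 of 8 tested rose and 1 fell, against 7.72% and 13.0% of all tested genes. ASF1B, which hands newly made histones to assembly factors and is highest in dividing cells, fell from 7.09 to 6.74, by 0.36 (limma adjusted p = 0.0025). Its other probe sets differed by -0.41 and -0.29, and it passed whichever array was left out. HIRA, which deposits H3.3 outside replication, rose by 0.22 and passed (adjusted p = 0.0329), but not when replicate 1 or 3 of GFP (0.18 and 0.20) or replicate 1 or 2 of SATalpha (0.21 and 0.19) was left out, and its other probe set differed by 0.0032. HIRA did not pass as the mean of both (0.11, adjusted p = 0.248).

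KMT5B and KMT5C (SUV4-20H1 and H2) add further methyl groups to lysine 20 of histone H4 in heterochromatin. In the gene fit neither passed, at 0.02 (adjusted p = 0.863) and -0.04 (adjusted p = 0.79). The probe sets of KMT5B differed among themselves. Its brightest read 6.78, 6.83 and 6.86 with GFP and 6.90, 6.79 and 6.85 with SATalpha, which overlap. The next brightest read 6.54, 6.63 and 6.50 with GFP and 6.98, 6.76 and 7.08 with SATalpha, which are apart. This probe set rose by 0.38 (SE 0.08, limma adjusted p = 0.0114 over probe sets), but did not pass when replicate 1 of GFP (0.38) or of SATalpha (0.36) was left out. The 6 probe sets of KMT5B ran from -0.26 to 0.38, and which transcript forms they detect was not tested.

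None of the 7 erasers passed by limma (0 of 7), and 0 had an unadjusted p under 0.05. The unmoderated model called 0, as it did over all 42 silencing genes, so that count is not particular to the erasers. Among all tested genes 20.8% passed, and 3692 of 10879 had an unadjusted limma p under 0.05. No test of this short list was made. Among the demethylases of histone H3 lysine 9, KDM4B read 5.79, 5.81 and 5.91 with GFP and 5.74, 5.54 and 5.78 with SATalpha. Its groups were just apart, at -0.15 (limma adjusted p = 0.26). KDM4C differed by -0.15 (adjusted p = 0.234) and KDM4A by 0.04 (adjusted p = 0.738), both with overlap. KDM1A (LSD1), a demethylase of histone H3, differed by -0.10 (adjusted p = 0.23), and KDM2A, which demethylates lysine 36 of the same histone, by -0.11 (adjusted p = 0.46). The deacetylase SIRT1 read 7.56, 7.58 and 7.61 with GFP and 7.74, 7.69 and 7.63 with SATalpha. All SATalpha values of SIRT1 were higher, and the difference of 0.10 did not pass (adjusted p = 0.227). SIRT6, a deacetylase of pericentric chromatin, differed by 0.04 (adjusted p = 0.704).

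EZH2, SUZ12 and EED form the core of Polycomb repressive complex 2, which methylates lysine 27 of histone H3. EZH2, the catalytic subunit, read 7.46, 7.35 and 7.59 with GFP and 7.21, 7.38 and 7.13 with SATalpha. SATalpha replicate 2 lay within the GFP range, and the difference of -0.23 just missed the threshold (limma adjusted p = 0.0524). It passed without replicate 2 of GFP (-0.28) or of SATalpha (-0.30) and with the lowest 60% of genes left out, and over the other alternatives run its adjusted p reached 0.242. SUZ12 differed by -0.05 (adjusted p = 0.521). EED differed by 0.10 (adjusted p = 0.171), and its 4 probe sets all lay above 0, from 0.09 to 0.15. Among PRC1 and other PRC2 genes 2 of 21 tested fell (9.52%) and 0 rose, against 13.0% and 7.72% of all tested genes. PHC2, a PRC1 subunit, fell from 8.16 to 7.72, by 0.44 (adjusted p = 9.33e-05), and passed whichever array was left out. PHF19, which helps recruit PRC2, fell by 0.16 (adjusted p = 0.0337), but did not pass when replicate 1 or 3 of GFP (-0.15 in both) or replicate 1 or 2 of SATalpha (-0.17 and -0.14) was left out.

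**Figure D3:**
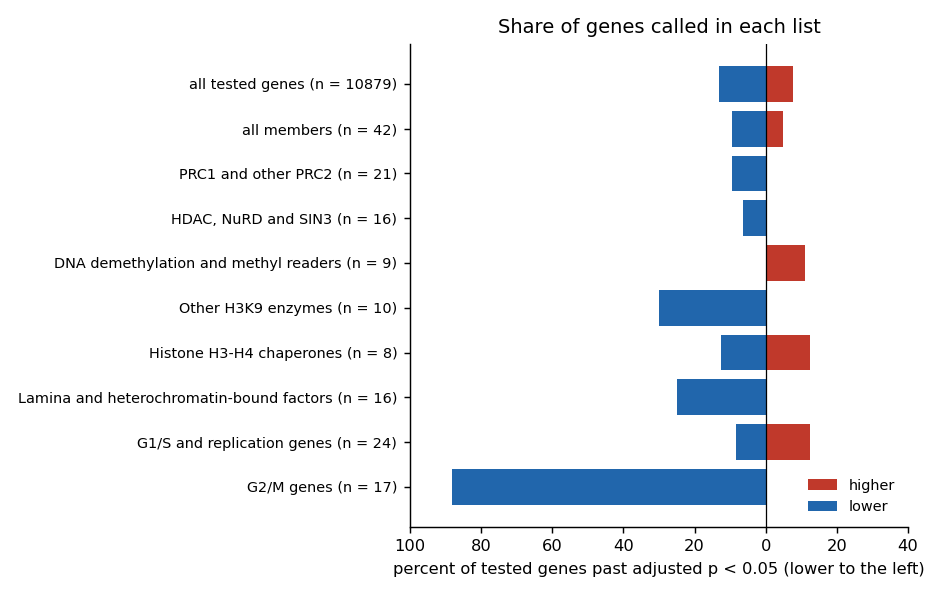
Percent of tested genes past a limma adjusted p of 0.05 (x axis), higher to the right and lower to the left of 0, for all tested genes, the 42 silencing genes and the lists beside them. The silencing genes, at 4.76% higher and 9.52% lower, lie near the shares of all tested genes, 7.72% and 13.0%, and the G2/M list, at 88.2% lower, is far from them.

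The cell cycle lists give the scale of these differences. CCNB1, AURKA, CDC20 and HMMR, which act in mitosis, fell by 0.67, 0.78, 0.68 and 0.66, each at least as large as all differences among the silencing genes except those of SETDB2. Of the G1/S genes, GINS3 and CDC6, which help to build and load the replicative helicase, rose by 0.52 and 0.24, and both passed whichever array was left out. The other probe set of CDC6 differed by 0.0007, and as the mean of both CDC6 did not pass (0.12, limma adjusted p = 0.0617). MCM7, of the helicase itself, rose by 0.12 but did not pass without replicate 1, 2 or 3 of GFP (0.14, 0.11 and 0.11) or replicate 1 of SATalpha (0.11). GINS1, which sits in a complex with GINS3, fell by 0.20 but did not pass without replicate 1 of GFP (-0.20) or of SATalpha (-0.18), nor as the mean of its probe sets (-0.09, limma adjusted p = 0.357).

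Of the 147 probe sets, 99 lay above the floor, 68 had differences above 0 and 79 below 0, with a median of -0.02. Tested over all 49293 probe sets without a filter, 3 rose and 5 fell, 5.44% of 147. Among all probe sets 4.18% rose and 4.19% fell, 8.36% in either direction. They belonged to SETDB2 and CBX3 (2 each), CBX5, HELLS, MBD3 and KMT5B. The groups did not overlap in 40 of them (27.2%), against 26.0% of all. Of the 36 genes with several probe sets, 15 had all of them on the same side of 0 and 21 had them on both sides. Without replicate 1 of GFP, 0 probe sets rose and 2 fell, both of them of SETDB2, and without replicate 1 of SATalpha 1 rose and 4 fell. As probe sets, those of HELLS (0.26 in both) and MBD3 (0.40 and 0.38 without replicate 1 or 2 of GFP) were among the calls lost.

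**Figure D4:**
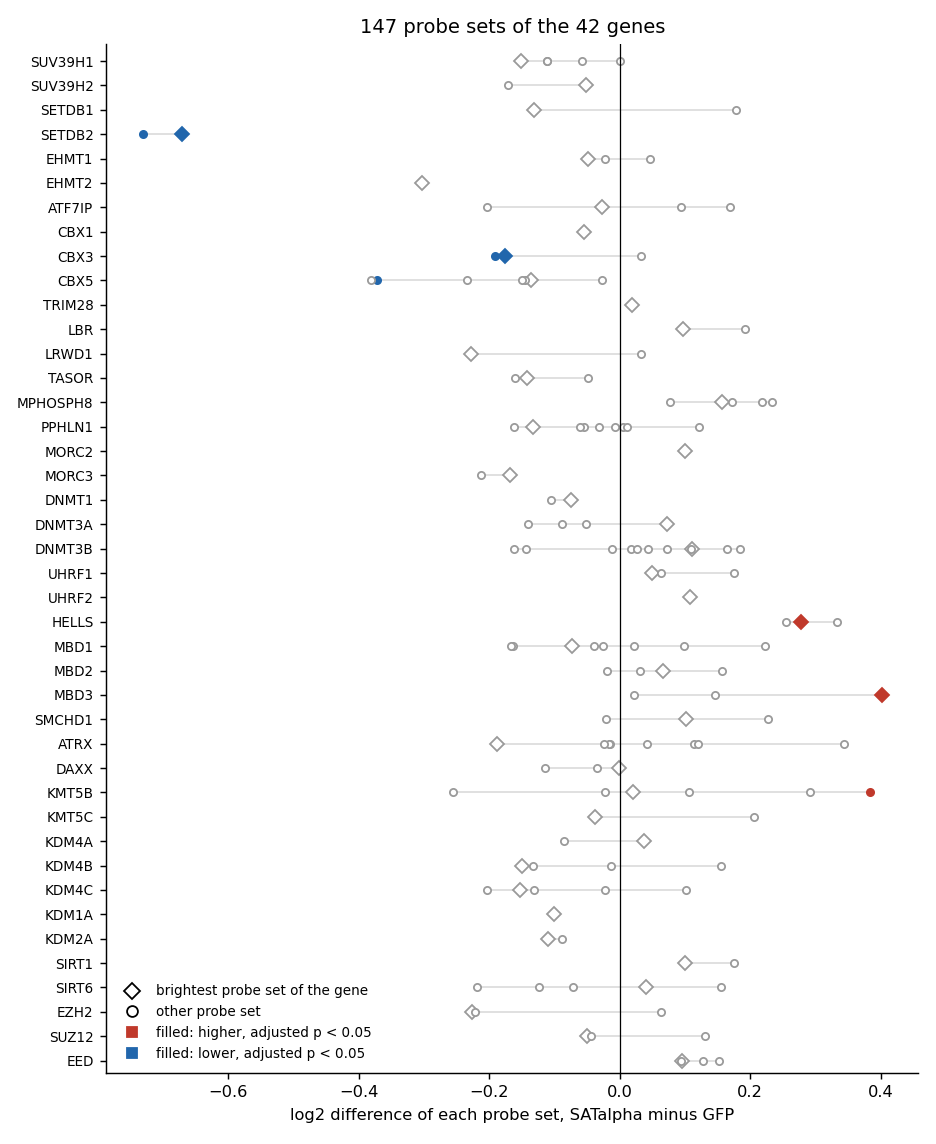
Log2 difference between SATalpha and GFP (x axis) of each of the 147 probe sets, in a row per gene, with diamonds for the brightest probe set of a gene, circles for the others, and filled symbols past an adjusted p of 0.05 over all probe sets. The 2 SETDB2 probe sets lie near each other at -0.67 and -0.73, whereas those of KMT5B run from -0.26 to 0.38.

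The stability of the 6 gene calls differed. SETDB2, CBX3, HELLS and MBD3 passed in each of the 6 fits that left out 1 array, and EHMT2 and LRWD1 in 2 of the 6. In those fits the highest adjusted p was 0.00513 for SETDB2, 0.034 for HELLS, 0.0344 for MBD3, 0.0391 for CBX3, 0.0986 for EHMT2 and 0.205 for LRWD1.

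**Figure D5:**
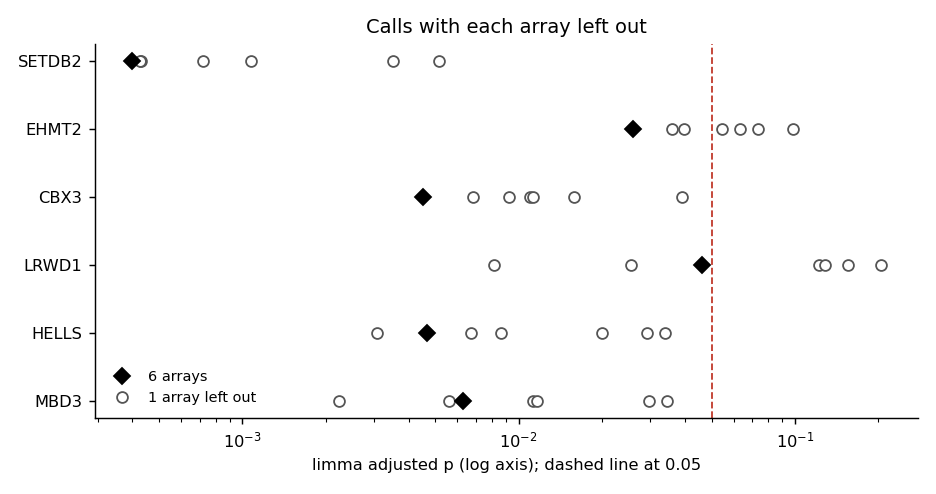
Limma adjusted p (x axis, log scale) of the 6 called genes with all 6 arrays (diamond) and with each array left out in turn (open circles), and a dashed line at 0.05. All circles of SETDB2, CBX3, HELLS and MBD3 lie left of the line, and 4 of the 6 circles of EHMT2 and of LRWD1 lie right of it.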

How the data were processed

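Total RNA from ARPE-19 cells was measured on 6 Affymetrix 3′ expression arrays, 3 per plasmid. The authors deposited 1 log2 signal per probe set and array, already normalized between arrays. The log base was read from the values. MAS5 and RMA both appear in the submitters' processing notes, with no word on their roles. The sources used here give no genome build. The number of arrays limits the precision (median SE 0.06).

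Gene names came from the platform annotation: of 49372 probe sets, 79 were controls, 44988 had 1 symbol, 1832 several and 2473 were not listed. None of the shared probe sets listed a member (0), and 0 member symbols needed an update against RefSeq. A gene was represented by its brightest probe set (highest mean of all arrays), and genes in the lowest 40% of that level were not tested (floor 5.19). Groups were compared with limma 3.58.1 in R 4.3.3 (lmFit, eBayes with a mean-variance trend), Benjamini-Hochberg adjusted over 10879 genes or, without a filter, 49293 probe sets, at 0.05. Intervals are 95% limma intervals. On simulated data over 10879 genes the test recovered 37.6% of 1.2-fold and 91.4% of 1.5-fold changes, with 4.02% false calls. Each simulation changed 200 genes and drew independent normal noise. In the data 2259 genes were called, so these rates may not carry over.

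Per-array values were given for members past the threshold in either fit, members whose groups did not overlap, and SUV39H1, DNMT1, TRIM28, SETDB1 and CBX5. From each pathway list up to 4 genes past the threshold were named. Members and lists were chosen with earlier results of these data known. Alternatives were other filters, normalizations and summaries of probe sets, the replicate number as a block, no trend, an unmoderated model and each array left out. No block was used in the main fit, and with the block EHMT2 and LRWD1 lost their calls. Deviations of same-numbered arrays showed no positive correlation across groups, but these values cannot show whether arrays were handled in pairs. Upstream windows came from RefSeq (GRCh38.p14).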

Additional observations from a re-analysis of the deposited data

How the results depend on the processing

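Of 631 recomputed values of single members under the alternatives, 575 kept their direction and side of the threshold, 22 lost the call, 10 gained it and 24 changed sign. Median centring and quantile normalization ended no member call, and under quantile normalization PPHLN1 also passed (-0.14). The number of members called higher was 2 in every alternative except the unmoderated model and the removal of probe sets of several transcripts. These were HELLS and MBD3, but HELLS and UHRF2 as the mean of all probe sets. Each array left out gave 2 to 2 higher and 3 to 5 lower, with a median of -0.05 to -0.03. In the unmoderated model 0 members rose and 0 fell (the lowest adjusted p among the 6 was 0.0614, for CBX3), and over all genes 246 rose and 471 fell. Without probe sets of several transcripts 14 members remained, of which 0 rose and 0 fell, with a median of 0.0291, and 220 genes rose and 261 fell of 5014. This setting removed every probe set of the 6 called genes, so it could not test their calls.

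Deviations of same-numbered arrays correlated at -0.003, -0.24 and -0.29, and the highest correlation was 0.34, for GFP replicate 3 with SATalpha replicate 2. Deviations from a mean of 3 arrays are tied to one another. These values thus cannot show whether arrays were handled in pairs. With the replicate block 2 members fell (EHMT2 and LRWD1 were lost), 483 genes rose and 817 fell, and 1221 probe sets rose and 1107 fell. Of the 6 arrays, 0 correlated best with the array of its own number in the other group.

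With each array left out, 477 to 897 genes rose and 731 to 1628 fell. Over probe sets 1055 to 2079 rose and 906 to 2246 fell, and of those of members 0 to 4 rose and 2 to 7 fell. Over probe sets, 688 rose and 633 fell with no trend (members 0 and 2), and 153 rose and 170 fell in the unmoderated model (members 0 and 0).

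The genes called in the lists ranged from 1 to 6 for PRC1 and other PRC2, 1 to 2 for HDAC, NuRD and SIN3, 1 to 2 for DNA demethylation, 1 to 3 for chaperones, 1 to 7 for lamina factors and 2 to 8 for G1/S genes with an array left out. As the mean of all probe sets the called genes numbered 4 for PRC1 and other PRC2, 3 for DNA demethylation, 1 for chaperones and 2 for lamina factors.

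Signs turned for members that were not called. As the mean of all probe sets they were 0.0235 for SETDB1, -0.0515 for DNMT3A, 0.0472 for ATRX, 0.0841 for KMT5C, -0.0238 for KDM4A, -0.0439 for SIRT6 and 0.0121 for SUZ12. Without probe sets of several transcripts they were -0.0205 for SMCHD1, 0.21 for KMT5C and 0.16 for KDM4B. DAXX was 0.0065 under quantile normalization. With an array left out, values ranged over both signs, from -0.0899 to 0.0013 for EHMT1, -0.0923 to 0.0958 for ATF7IP, -0.0248 to 0.0574 for TRIM28, -0.0014 to 0.1779 for DNMT3A, -0.2262 to 0.0256 for ATRX, -0.0182 to 0.0169 for DAXX, -0.0059 to 0.049 for KMT5B and -0.084 to 0.0111 for KMT5C. In the mean, these members averaged probe sets of both signs, and without probe sets of several transcripts another probe set stood for the gene. With an array left out, another probe set had become the brightest for ATRX. The cause of the remaining turns was not tested.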
